A study of Homo sapiens with 9 samples.

Results

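The genes described here make cholesterol and fatty acids, or control their making through the SREBP transcription factors. A list of 37 genes was taken, and a gene entered through probe sets whose annotation holds its symbol and no other, with the brightest of them over all 9 arrays standing for the gene. Of the 37 genes, 33 had such a probe set, among 19775 genes in all. FDFT1, CYP51A1, ELOVL1 and FADS1 were not analysed here. The cells were H69, an established line from a human small cell lung cancer, a neuroendocrine tumour, grown in RPMI medium with fetal calf serum in every group. PIK75 was given at 100 nM (3 arrays), TGX221 at a labelled dose of 1 mM (3 arrays, unit not checkable from the values), and the controls had the vehicle DMSO per the protocol, although their treatment label reads none (3 arrays). RNA was taken after 24 h in complete medium. Both compounds inhibit phosphoinositide 3-kinases (PI3K), and they differ in the isoforms they prefer. The comparisons ask what each inhibitor does to the pathway, step by step, in a single cell line.

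Cholesterol is built from acetyl-CoA in the mevalonate pathway, whose product squalene is closed to lanosterol and then trimmed to cholesterol. Fatty acids start from the same acetyl-CoA, which is carboxylated, polymerised to palmitate, and then lengthened and desaturated. SREBP proteins are held in the endoplasmic reticulum by SCAP and the INSIG proteins while sterols are plentiful. When sterols run short SCAP carries them to the Golgi, where they are cut and released to switch on these same genes, and PI3K signalling through AKT and mTORC1 is known to raise SREBP activity.

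Every value is a log2 signal of 1 probe set, so levels are compared between arrays and not between genes. The array medians of the gene values lay between 8.20 and 8.23. Neuroendocrine markers had group means between 9.18 and 13.22 for the 10 measured of 11, and INSM1, a neuroendocrine transcription factor, averaged 12.97 with PIK75, 13.02 with TGX221 and 13.05 in controls. The summed signal of these 10 markers ran from 37877 to 38733 on PIK75 arrays, 49165 to 50802 on TGX221 arrays and 48926 to 49552 on control arrays, and with PIK75 7 of the 10 fell and 1 rose. DDC fell the most (log2 -1.21), SYP rose (log2 0.21), and INSM1 was among the 2 that did not pass. Of 7 markers of the non-neuroendocrine form of this cancer, 2 fell and 2 rose, with sums of 2907 to 2997 with PIK75, 5111 to 5157 with TGX221 and 5060 to 5142 in controls. With PIK75 CD44 (log2 -2.06) and ANXA2 (log2 -1.05) fell, and MYC (log2 0.49) and REST (log2 0.18) rose. Fibroblast markers had sums of 2127 to 2256 with PIK75, 1840 to 1942 with TGX221 and 1778 to 1851 in controls, and 7 of 8 rose with PIK75. Leukocyte markers (3 of 5 measured rose, sums 788 to 863 with PIK75, 691 to 721 with TGX221 and 656 to 725 in controls) and endothelial markers (2 of 5 rose, sums 924 to 981 with PIK75, 784 to 807 with TGX221 and 820 to 847 in controls) were read too. In these counts a gene fell or rose at a limma adjusted p below 0.05, where 25.2% of all genes fell and 35.2% rose with PIK75. Mean brightness ran from the 23.5 to the 94.6 percentile of genes for the non-neuroendocrine markers and from 17.4 to 73.3 for the fibroblast markers. That of the leukocyte markers ran from 13.9 to 53.9 and that of the endothelial markers from 15.3 to 56.8. The part of these shifts in the results was not tested. PIK75 replicate 5 stood apart in RNA quality, with an actin 3' minus 5' difference of 1.13 log2 units against 0.24 to 0.54 on the other 8 arrays, and counts are therefore also given without it. The signal of the hybridization spikes was 0.35 log2 units above control on the PIK75 arrays, and a shift shared by most genes cannot be told apart from the normalization. In bulk RNA, fewer cells of a kind and less RNA per cell cannot be told apart. The labels number the arrays without naming separate cultures, so each p-value rests on array-to-array spread that could be purely technical.

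With PIK75 most of the pathway was lower. Of the 33 measured genes, 27 fell, 3 rose and 3 did not pass the test, which is limma over all genes with Benjamini-Hochberg adjusted p below 0.05. Across all 19775 genes 25.2% fell and 35.2% rose. At 1.5-fold or more 15 of the 33 fell and 0 rose, against 10.4% and 1.48% of all genes, and at 2-fold or more 6 fell, against 3.57%. The 3 PIK75 arrays lay below all 3 control arrays for 27 of the 33 genes, as they did for 26.4% of all genes. The median log2 change was -0.539 for the 33 genes and 0.0879 for all genes tested. Without PIK75 replicate 5 the count of falls was again 27.

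Brightness moved with this count, and its part was not tested. The 33 genes lay between the 41.3 and 98.3 percentile of mean brightness, with a median at 81. Among the 9888 genes of at least median brightness 41.2% fell, and 24 of the 30 members among them did. The scaling moved the split of all genes, which was 6965 higher and 4982 lower as deposited, 4312 higher and 5024 lower with cyclic loess, 2469 higher and 5109 lower after centring on the poly-A spikes, and 386 higher and 13108 lower after centring on the hybridization spikes. The members' count of falls was 27 with cyclic loess, 27 with the poly-A spikes and 31 with the hybridization spikes.

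**Figure D1:**
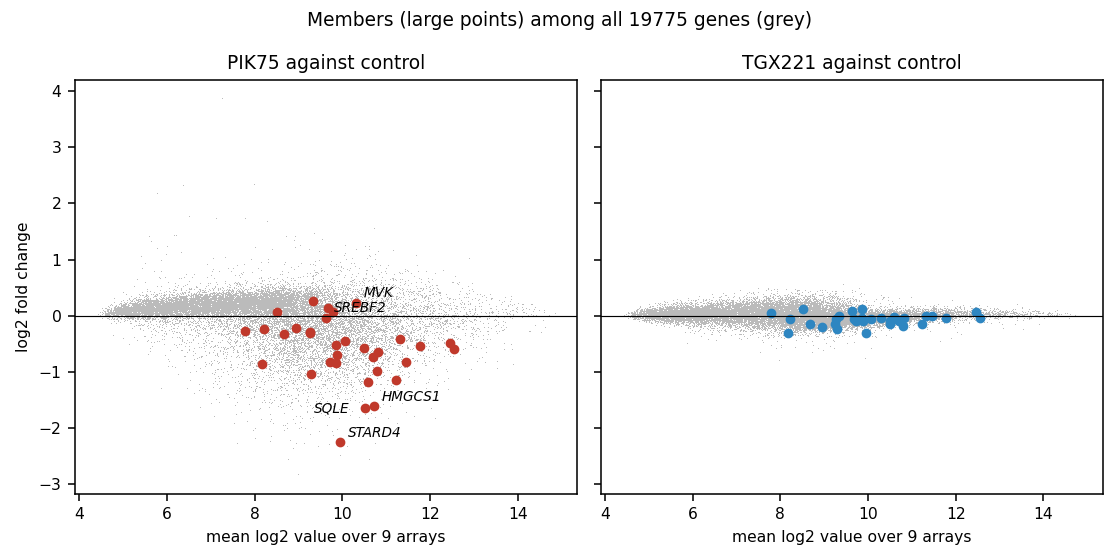
Log2 fold change (vertical axis) against the mean log2 value over 9 arrays (horizontal axis) for all 19775 genes (grey) and the 33 members (large points), with PIK75 on the left and TGX221 on the right. In the PIK75 panel the members reach from 0.27 down to -2.25 and most lie below 0, while in the TGX221 panel they stay between 0.11 and -0.31.

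Many of these genes are known SREBP targets, so their promoters were read from RefSeq (GRCh38.p14). Of the 33 genes, 30 had at least 1 window of 300 bases, from 250 before to 50 after a start site. ACAT2, SQLE and FASN had no window and were not searched. The sterol regulatory element, the SREBP site, was searched as TCACNCCAC, the box bound by NF-Y as CCAAT, the E-box as CACGTG and the GC box bound by SP1 as GGGCGG, each on both strands. A gene counted when any of its windows held a match. The sterol regulatory element in this strict form was in 1 of 30 members (3.33%) and in 1.43% of the 15384 tested genes with a window. The CCAAT box was in 23 of 30 members (76.7%) and in 41.7% of genes, the E-box in 5 (16.7%) against 10.9%, and the GC box in 28 (93.3%) against 64.6%. Counted by window, CCAAT was in 27 of 42 member windows (64.3%) against 34.5% of all windows. CCAAT was held by 18 of the 24 members that fell and by 5 of the 6 others. The shares over all genes took in genes of every brightness, while most members were bright, and the part of brightness in them was not tested. These matches are descriptions of letters and not of bound sites.

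The 250 bases before the start are shown for 6 genes. STARD4 (the largest fall), HMGCS1 (an early enzyme), SCD (a desaturase) and INSIG1 (a sterol sensor) were all lower with PIK75. They are set beside SREBF2, the sole member with the strict sterol element among the 30 searched, and MVK, which rose. SREBF2 came from the rule of showing members with the sterol element, which asked for a shorter stretch, and the others were chosen after their values were seen. Each reads 5′ to 3′ on the gene's strand, and capitals mark CCAAT boxes (ATTGG where on the opposite strand), the sterol element and the E-box, which do not overlap in these stretches. The stretches are chr5:111512536-111512785 (minus strand) for STARD4, chr5:43313413-43313662 (minus) for HMGCS1, chr10:100346983-100347232 (plus) for SCD, chr7:155297628-155297877 (plus) for INSIG1, chr22:41832855-41833104 (plus) for SREBF2 and chr12:109573544-109573793 (plus) for MVK.
STARD4: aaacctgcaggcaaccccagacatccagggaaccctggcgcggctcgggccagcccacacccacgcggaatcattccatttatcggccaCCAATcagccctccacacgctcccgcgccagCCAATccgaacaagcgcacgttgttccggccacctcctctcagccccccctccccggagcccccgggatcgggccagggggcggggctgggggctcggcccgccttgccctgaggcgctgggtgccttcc
HMGCS1: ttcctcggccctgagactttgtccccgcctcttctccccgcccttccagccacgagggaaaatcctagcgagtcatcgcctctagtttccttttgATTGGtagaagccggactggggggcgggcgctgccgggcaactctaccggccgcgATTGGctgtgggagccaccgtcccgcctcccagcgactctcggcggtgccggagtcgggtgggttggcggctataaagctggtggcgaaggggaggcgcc
SCD: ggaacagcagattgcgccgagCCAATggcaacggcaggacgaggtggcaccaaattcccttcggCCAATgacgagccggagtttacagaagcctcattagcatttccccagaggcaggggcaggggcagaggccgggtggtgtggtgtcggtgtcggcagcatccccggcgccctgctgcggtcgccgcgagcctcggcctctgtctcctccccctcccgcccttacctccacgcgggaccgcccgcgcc
INSIG1: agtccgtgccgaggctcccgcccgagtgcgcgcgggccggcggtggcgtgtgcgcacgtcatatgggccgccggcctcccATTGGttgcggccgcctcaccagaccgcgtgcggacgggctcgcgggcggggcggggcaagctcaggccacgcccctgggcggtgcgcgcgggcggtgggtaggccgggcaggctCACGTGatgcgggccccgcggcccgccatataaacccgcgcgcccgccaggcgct
SREBF2: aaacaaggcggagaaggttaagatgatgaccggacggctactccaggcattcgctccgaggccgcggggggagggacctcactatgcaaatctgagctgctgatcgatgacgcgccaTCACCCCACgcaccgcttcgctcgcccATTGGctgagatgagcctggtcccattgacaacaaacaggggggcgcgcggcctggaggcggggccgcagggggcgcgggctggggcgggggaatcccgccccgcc
MVK: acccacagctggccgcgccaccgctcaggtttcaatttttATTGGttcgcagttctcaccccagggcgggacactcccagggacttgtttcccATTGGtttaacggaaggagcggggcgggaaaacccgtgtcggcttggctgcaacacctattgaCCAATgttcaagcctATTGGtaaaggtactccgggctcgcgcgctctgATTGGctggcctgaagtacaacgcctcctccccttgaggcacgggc
In these stretches MVK holds 5 CCAAT boxes, STARD4, HMGCS1 and SCD hold 2 each, and INSIG1 and SREBF2 hold 1 each. Of each gene the first listed window was used. HMGCS1 had another window at a different start, with GC boxes and no CCAAT box. In SREBF2 the sterol element begins 133 bases before the start and the CCAAT box 106 before it. INSIG1 also carries the E-box, 55 bases before its start.

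Of the 7 genes of the mevalonate steps 5 fell with PIK75, 1 rose and 1 did not pass. Of all genes 25.2% fell and 35.2% rose, and 41.2% fell among those of at least median brightness. Both largest falls of the 7 were at the entry. HMGCS1, which joins acetoacetyl-CoA and acetyl-CoA, read 9.66, 9.71 and 9.64 on the PIK75 arrays, 11.13, 11.23 and 11.21 on the TGX221 arrays and 11.26, 11.28 and 11.31 on the control arrays. The PIK75 arrays lay far below both other groups, with a fall of 3.06-fold against control (log2 -1.61, SE 0.0505, adjusted p = 5.63e-10 by limma). Its second probe set fell as well (log2 -1.4).

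ACAT2, the thiolase that makes acetoacetyl-CoA in the cytosol, read 9.97, 9.62 and 9.88 with PIK75, 10.92, 11.03 and 10.95 with TGX221 and 10.99, 10.90 and 11.08 in controls. It was 2.25-fold lower with PIK75 than in controls (log2 -1.17, SE 0.0826), and the TGX221 and control arrays overlapped. The kinases that follow did not share this size of change. MVK, mevalonate kinase, was higher by 0.22 (SE 0.054, adjusted p = 0.00358 by limma), with arrays at 10.41, 10.44 and 10.56 for PIK75 against 10.25, 10.25 and 10.24 for control. This rise ended with the poly-A spikes (0.14, adjusted p = 0.259), for the mean of its probe sets (0.11, adjusted p = 0.055) and with actin as a covariate (0.16, adjusted p = 0.0687), and turned to -0.13 with the hybridization spikes. PMVK, phosphomevalonate kinase, fell by 0.30, and MVD, the decarboxylase, had a value of 0.07 (adjusted p = 0.312, 95% interval -0.06 to 0.20). With the hybridization spikes MVD passed as lower (-0.28, adjusted p = 0.00345 by limma). IDI1, the isomerase of the isoprene unit, fell by 0.65, and FDPS, farnesyl diphosphate synthase, fell by 0.54. The IDI1 probe set carries the suffix that marks possible cross-hybridization, and a second bright probe set with that suffix gave -0.82. The remaining IDI1 probe sets were dimmer and did not pass (log2 -0.04 and -0.05).

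From squalene to cholesterol 8 of 9 genes fell with PIK75 and 0 rose by limma. Of all genes 25.2% fell and 35.2% rose, and 41.2% fell among those of at least median brightness. At an unadjusted p below 0.05 by limma, in either direction, there were 8 of 9, against 65.2% of all genes. SQLE, the epoxidase that commits squalene to sterols, read 9.56, 9.48 and 9.30 with PIK75, 10.98, 11.02 and 10.99 with TGX221 and 11.09, 11.08 and 11.10 in controls. The fall against control was 3.12-fold (log2 -1.64, SE 0.0641, adjusted p = 2.22e-09 by limma), and all 3 further probe sets of SQLE fell too (log2 -0.51, -1.30 and -0.59). LSS, which closes the ring to lanosterol, read 8.71, 8.72 and 8.57 with PIK75, 9.43, 9.49 and 9.50 with TGX221 and 9.73, 9.67 and 9.72 in controls. The 3 groups of LSS did not overlap, and PIK75 lay 1.04 log2 units below control (SE 0.0555). Both further LSS probe sets rose (log2 0.20 and 0.41), and the mean of all 3 was -0.14 (adjusted p = 0.0163 by limma).

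MSMO1, the oxidase that starts removal of the C4 methyl groups, read 10.43, 10.33 and 9.86 with PIK75, 10.93, 11.12 and 10.96 with TGX221 and 11.26, 11.22 and 11.07 in controls. Its PIK75 arrays spread the most in this arm (SD 0.303) and still lay below the controls (log2 -0.97, SE 0.119, adjusted p = 2.15e-05 by limma). TM7SF2, a sterol C14 reductase, fell by 0.85, SC5D, the C5 desaturase, fell by 0.74, and DHCR7, which makes the last reduction, fell by 0.70. HSD17B7, a ketoreductase, fell by 0.56 on a probe set of the cross-hybridization class, and EBP, the isomerase, fell by 0.42. Of the further EBP probe sets the brightest fell (log2 -0.40), and the others did not pass (log2 0.04 and 0.17). NSDHL, a dehydrogenase of the C4 demethylation, had a value of 0.07 (adjusted p = 0.348, 95% interval -0.06 to 0.20), and its second probe set fell by 0.16 (adjusted p = 0.0429 over all probe sets by limma). By limma NSDHL passed as higher with cyclic loess (0.18, adjusted p = 0.0178) and as lower with the hybridization spikes (-0.29, adjusted p = 0.0026).

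STARD4, a soluble carrier that moves cholesterol between membranes, showed the largest change of the 33 genes. It read 8.49, 8.57 and 8.60 with PIK75, 10.50, 10.50 and 10.47 with TGX221 and 10.85, 10.86 and 10.70 in controls. The 3 groups did not overlap, and PIK75 was 4.77-fold below control (95% interval of the log2 change -2.38 to -2.13, adjusted p = 1.65e-10 by limma). AACS, which turns the ketone body acetoacetate into acetoacetyl-CoA for lipid synthesis, fell by 0.45.

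The regulators did not move together. INSIG1, itself an SREBP target and an anchor of SCAP, read 10.93, 10.92 and 10.89 with PIK75, 11.64, 11.81 and 11.74 with TGX221 and 11.69, 11.66 and 11.86 in controls. It was 1.77-fold lower with PIK75 than in controls (log2 -0.82, SE 0.0645), and both further probe sets fell (log2 -0.94 and -1.06). INSIG2, the second anchor, read 7.81, 7.63 and 7.67 with PIK75, 8.11, 8.53 and 8.14 with TGX221 and 8.55, 8.98 and 8.14 in controls. Its controls were the most scattered of any member (SD 0.421), yet the PIK75 arrays lay below all of them (log2 -0.86, SE 0.168, adjusted p = 0.000953 by limma).

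SREBF1, whose SREBP products favour fatty acid genes, read 8.56, 8.46 and 8.51 with PIK75, 8.71, 8.54 and 8.78 with TGX221 and 8.87, 8.78 and 8.83 in controls, a fall by 0.32 with PIK75 against control (SE 0.064). The second SREBF1 probe set did not pass (log2 0.03, adjusted p = 0.641 over all probe sets by limma). Over the 23 alternatives the change of SREBF1 ran from -0.67 to -0.14. SREBF2, whose product favours sterol genes, read 9.55, 9.66 and 9.53 with PIK75, 9.72, 9.68 and 9.70 with TGX221 and 9.66, 9.58 and 9.60 in controls. The PIK75 and control arrays of SREBF2 overlapped (log2 -0.03, adjusted p = 0.601 by limma, 95% interval -0.15 to 0.08), whereas its second probe set fell by 0.27. The mean of its probe sets passed as lower (-0.12, adjusted p = 0.0401), and SREBF2 also passed when arrays were centred on the hybridization spikes (-0.38, adjusted p = 7.94e-05). SCAP, the escort, read 9.79, 9.77 and 9.82 with PIK75, 9.60, 9.64 and 9.57 with TGX221 and 9.60, 9.67 and 9.70 in controls. The rise of 0.14 against control (adjusted p = 0.032 by limma) did not pass without PIK75 replicate 1 (0.14, adjusted p = 0.0536), PIK75 replicate 5 (0.12, adjusted p = 0.0775), control replicate 1 (0.11, adjusted p = 0.119) or control replicate 3 (0.15, adjusted p = 0.0541), and it turned to -0.21 with the hybridization spikes.

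**Figure D2:**
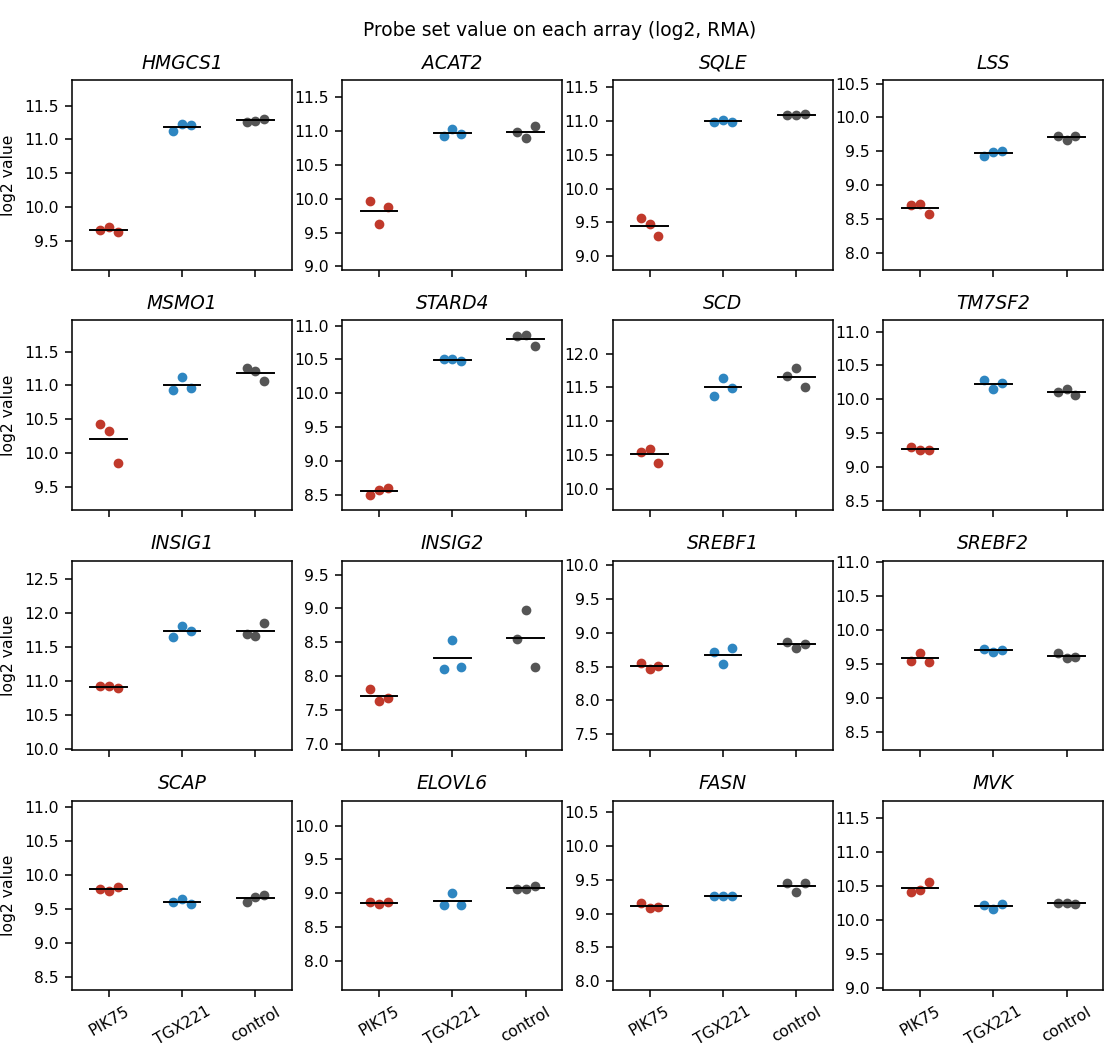
Log2 value of the representative probe set on each array (points) with the group mean (line) for 16 genes, with PIK75, TGX221 and control from left to right and the same span of log2 units in every panel. PIK75 points of HMGCS1, SQLE and STARD4 sit below every control point (log2 changes of -1.61, -1.64 and -2.25), while SREBF2 shows overlapping PIK75 and control points.

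In the steps from acetyl-CoA to palmitate 5 of 6 genes fell with PIK75 and 1 rose. Of all genes 25.2% fell and 35.2% rose, and 41.2% fell among those of at least median brightness. ACLY, which splits citrate to acetyl-CoA in the cytosol, averaged 12.16 ± 0.116 with PIK75 and 12.75 ± 0.0565 in controls (SD, n = 3 arrays each), and fell by 0.59, as did both of its further probe sets (log2 -0.69 and -0.63). ACSS2, which makes acetyl-CoA from acetate, fell by 0.23. ACACA, the acetyl-CoA carboxylase of the cytosol, averaged 9.20 ± 0.107 with PIK75 and 10.03 ± 0.0547 in controls (SD, n = 3 arrays each), which was 1.77-fold lower. ACACB, the carboxylase at the mitochondrion whose product restrains fatty acid oxidation, was higher by 0.27 (adjusted p = 0.0054 by limma), and 5 of its 6 further probe sets rose too (log2 0.24 to 0.34). The rise of ACACB ended with the poly-A spikes (0.19, adjusted p = 0.128) and the actin covariate (0.14, adjusted p = 0.135), and turned to -0.08 with the hybridization spikes.

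FASN, fatty acid synthase, depended on the probe set. The brightest read 9.15, 9.08 and 9.09 with PIK75, 9.26 on all 3 TGX221 arrays and 9.45, 9.32 and 9.45 in controls, and fell by 0.30 with PIK75 against control (SE 0.0529, adjusted p = 0.000432 by limma). Its other probe set rose by 0.30, and the mean of both did not pass (0.00, adjusted p = 0.982). ME1, the malic enzyme that supplies NADPH, fell by 0.27, on a probe set at the 41.3 percentile of brightness.

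All 4 measured genes of elongation and desaturation fell with PIK75, as did 25.2% of all genes and 41.2% of those of at least median brightness. SCD, which puts the first double bond into stearate, read 10.55, 10.59 and 10.39 with PIK75, 11.38, 11.64 and 11.49 with TGX221 and 11.67, 11.79 and 11.50 in controls. The fall against control was 2.21-fold (log2 -1.14, SE 0.0861, adjusted p = 2.85e-07 by limma), with 1 of 3 further probe sets also lower (log2 -0.79). ELOVL5, an elongase of polyunsaturated chains, fell by 0.48 with a spread of at most 0.0123 (SD) in any group. Its 3 further probe sets, all dimmer, did not pass against control (log2 -0.13, 0.02 and -0.09). FADS2, the delta-6 desaturase, fell by 0.51, but its dimmer probe set rose by 0.32 and the mean of both did not pass (-0.09, adjusted p = 0.0845). ELOVL6, which extends palmitate to stearate, read 8.87, 8.84 and 8.87 with PIK75, 8.83, 9.0 and 8.82 with TGX221 and 9.07, 9.07 and 9.11 in controls. PIK75 and TGX221 arrays of ELOVL6 overlapped, and both lay below the controls (log2 -0.22, adjusted p = 0.00574, and -0.19, adjusted p = 0.11, by limma). Both further probe sets of ELOVL6 fell with PIK75 (log2 -0.56 and -0.37).

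Further probe sets gave a check on the choice of 1 per gene. Of the 27 genes that fell, 17 had further probe sets; in 10 of them at least 1 of these fell too, and in 3 (LSS, FASN and FADS2) at least 1 rose. With all probe sets of a gene averaged, 26 genes fell and 2 rose.

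With TGX221 a single member passed the test. STARD4 was 1.24-fold lower than in controls (log2 -0.31, SE 0.058, adjusted p = 0.0356 by limma), among 0.399% of all genes that fell and 0.809% that rose, and 0 members rose (6 of 33, or 18.2%, had an unadjusted p below 0.05, against 18.3% of all genes). This call did not hold without control replicate 1 (-0.29, adjusted p = 0.0802), control replicate 3 (-0.29, adjusted p = 0.126), PIK75 replicate 3 (-0.31, adjusted p = 0.0567), TGX221 replicate 2 (-0.32, adjusted p = 0.152) or TGX221 replicate 5 (-0.30, adjusted p = 0.176). Nor did it hold with the poly-A spikes (-0.24, adjusted p = 0.178). Cyclic loess gave -0.29 (adjusted p = 0.055) and the replicate block gave -0.32 (adjusted p = 0.257).

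The next largest values under TGX221 were INSIG2 at -0.30 (adjusted p = 0.379), LSS at -0.23 (adjusted p = 0.0651) and ELOVL6 at -0.19 (adjusted p = 0.11, all by limma). The 3 TGX221 arrays lay below all 3 control arrays for 13 of the 33 genes, against 12.4% of all genes, and above them for 3, against 11.5%. The median log2 change was -0.0587 for the 33 genes and -0.00168 for all genes. The 95% interval of the change stayed within 1.5-fold for 32 of the 33 genes, the exception being INSIG2 (-0.66 to 0.07). HMGCS1 had an interval of -0.20 to 0.02, SQLE of -0.23 to 0.05 and SCD of -0.34 to 0.04.

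**Figure D3:**
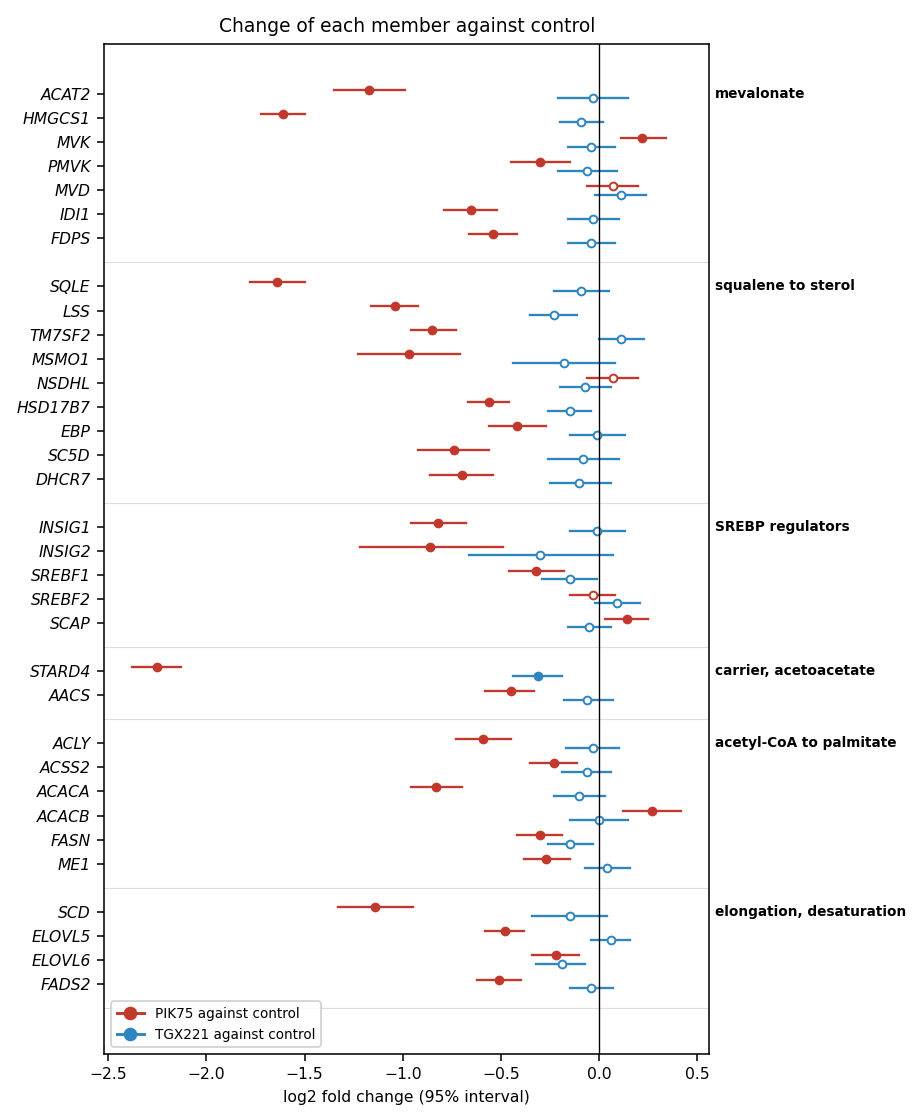
Log2 fold change with its 95% interval for each of the 33 genes, ordered by pathway step, for PIK75 against control (red) and TGX221 against control (blue). Filled points have an adjusted p below 0.05 and open points do not. Red points spread from -2.25 (STARD4) to 0.27 (ACACB), while blue points lie between -0.31 and 0.11.

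PIK75 and TGX221 were also compared directly, at doses that differ as labelled. Of the 33 genes, 26 were lower with PIK75 than with TGX221, 3 were higher and 4 did not pass, where 22.3% of all genes were lower and 25.1% higher. STARD4 was 3.83-fold lower with PIK75 than with TGX221 (log2 -1.94, SE 0.058), SQLE 2.93-fold (log2 -1.55) and HMGCS1 2.87-fold (log2 -1.52), each larger than the spread between arrays. TM7SF2 averaged 9.26 ± 0.027 with PIK75 and 10.22 ± 0.069 with TGX221 (SD, n = 3 arrays each), which was 1.95-fold lower. MVK, SCAP and ACACB were higher with PIK75 than with TGX221 (log2 0.27, 0.19 and 0.26), and with the hybridization spikes these turned to -0.02, -0.09 and -0.02. Further probe sets passed in the opposite direction against TGX221 for MVK (log2 -0.26), LSS (log2 0.27 and 0.39) and FADS2 (log2 0.34), by limma over all probe sets. For the mean of probe sets, LSS (-0.05, adjusted p = 0.363), FADS2 (-0.07, adjusted p = 0.236) and MVK (0.06, adjusted p = 0.254) did not pass against TGX221. SREBF1 (-0.06, adjusted p = 0.253) and FASN (0.02, adjusted p = 0.75) did not pass there either, while ELOVL6 passed as lower (-0.23, adjusted p = 0.0141 by limma). The call of FASN as lower than with TGX221 (-0.15, adjusted p = 0.0335 by limma) stayed the same in 11 of the 23 alternatives. SREBF2 (log2 -0.12, 95% interval -0.24 to -0.01, adjusted p = 0.0722), MVD (-0.04, interval -0.17 to 0.09), ELOVL6 (-0.03, interval -0.15 to 0.10) and NSDHL (0.14, interval 0.01 to 0.27, adjusted p = 0.0751) did not pass by limma. SREBF1 passed narrowly (log2 -0.17, adjusted p = 0.0488), and without any one of 7 of the arrays, for example control replicate 1 (adjusted p = 0.06) or TGX221 replicate 5 (-0.12, adjusted p = 0.184), it did not.

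Neighbouring genes of the pathway were read from lists, beside the 25.2% of all genes that fell with PIK75, the 35.2% that rose and the 41.2% that fell among those of at least median brightness. Of 12 measured genes of SREBP processing and turnover, 8 fell (66.7%) and 2 rose (16.7%) with PIK75. PAQR3, a Golgi anchor of SCAP and SREBP, fell by 1.10, MBTPS2, the protease that makes the second cut in SREBP, fell by 0.97, and ERLIN2, a partner of the INSIG complex, fell by 0.82. FAF2, which helps extract INSIG1 for degradation, rose (log2 0.52), as did ERLIN1 (log2 0.24).

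The next list joins genes of the sterol-sensing LXR receptors and of sterol efflux. Of its 9 measured genes, which include NR1H3, RXRA and RXRB, 2 fell (22.2%) and 4 rose (44.4%) with PIK75, shares near those of all genes. The exporter ABCG1 averaged 8.37 with PIK75, 9.12 with TGX221 and 9.43 in controls, a fall by 1.06 with PIK75 against control, and LPCAT3, a phospholipid acyltransferase, fell by 0.41. APOE (log2 0.31) and ABCG4 (log2 0.26) rose, as did the receptor gene NR1H3 and the exporter ABCA1 (log2 0.22 each). In controls ABCG4 (7.24), ABCA1 (7.57) and NR1H3 (8.09) lay below the median brightness of all genes (8.23), and APOE (8.74) lay above it. In sterol traffic and esters 7 of 15 fell (46.7%), near the share of the brighter genes, and 3 rose, with SOAT1, which esterifies cholesterol (log2 -0.89), and the lipoprotein receptor SCARB1 (log2 -0.44) lower, STARD3NL and NCEH1 lower (log2 -0.32 each) and VLDLR, STARD3 and SOAT2 higher (log2 0.54, 0.46 and 0.28).

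The isoprenoid branch, which draws on farnesyl diphosphate, had 6 of 12 lower and 2 higher (16.7%). COQ2, a transferase of ubiquinone synthesis, fell by 1.61, PDSS2 by 0.75 and PDSS1 by 0.59, both of which make its side chain, while NUS1 of dolichol synthesis rose (log2 0.32) and the protease RCE1 rose (log2 0.25). Of 20 further genes of fatty acid chains 9 fell, again near the share of the brighter genes, and 3 rose. The elongases ELOVL2 (log2 -0.94) and ELOVL7 (log2 -0.90) and ACSL4, which activates polyunsaturated chains (log2 -0.88), fell, and SCD5, a second stearoyl-CoA desaturase, rose (log2 0.63), opposite to SCD. THRSP (log2 0.30) and ELOVL3 (log2 0.26) rose from dim values. Over these lists TGX221 called 0 genes in either direction by limma, with 4 of 12, 5 of 9, 4 of 15, 1 of 12 and 5 of 20 at an unadjusted p below 0.05 in the order given, against 18.3% of all genes.

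**Figure D4:**
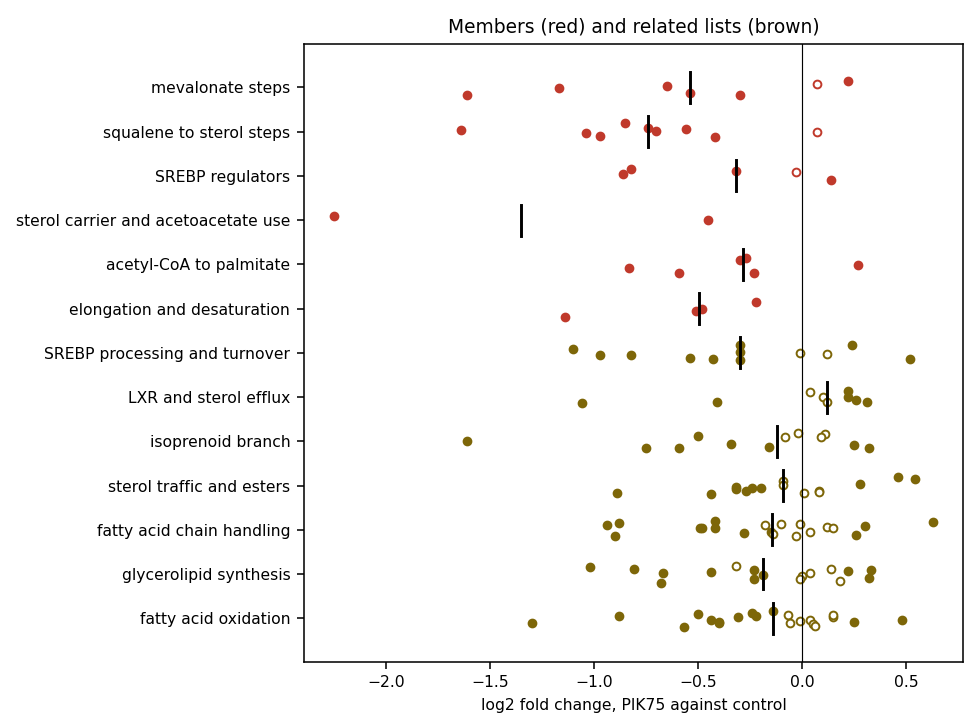
Log2 fold change of PIK75 against control for the members by step (red) and for related lists (brown), 1 point per gene, with vertical scatter added for legibility only. Filled points have an adjusted p below 0.05 and black bars are medians, which run from -1.35 in the pair of STARD4 and AACS to 0.115 in the list of LXR and sterol efflux.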

How the data were processed

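The authors deposited 1 log2 value per probe set and array, and RMA is the tool named per the submitters' processing notes, with no version. The file holds 54675 probe sets on 9 arrays, with 62 controls, 41091 with 1 gene symbol, 1801 with several and 11721 with none. Symbols come from the platform annotation and were updated by Entrez identifier, and 17 listed genes were not analysed here. The values were used as deposited, and array numbers limit the precision.

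All 9 arrays entered 1 limma fit (limma 3.58.1, R 4.3.3, lmFit and eBayes) with 3 group means. It had 6 residual degrees of freedom, and the prior added 6.155. Adjustment ran over 19775 genes (Benjamini-Hochberg), called below 0.05. The fit was tested on simulated data. In all 23 alternatives were tried: scaling, a filter on dim genes, the probe set rule, the arrays in the fit, the spread, array weights, a replicate block, an actin covariate, thresholds and each array left out. An exact test of 3 arrays against 3 cannot go below 0.1.

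Members and lists were chosen with earlier results of these data known. All members are named. Values on every array are given for the 8 largest PIK75 changes, the 4 largest TGX221 changes and 5 regulators, with FASN and MVK (and TM7SF2 in a figure) added after their values were seen. Of related lists up to 3 called genes per direction are named, more where values tie. Figures used Python 3.11.15 and matplotlib 3.10.9.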

Additional observations from a re-analysis of the deposited data

How the results depend on the processing

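The count of members lower with PIK75 than in controls was 27 in every setting that leaves out an array, and between 24 (without dim genes, where fewer members were tested) and 31 (hybridization spikes) elsewhere, apart from 15 when 1.5-fold was also asked. Members higher numbered 3, but 0 with the poly-A spikes, the hybridization spikes, the actin covariate or the 1.5-fold minimum, and 2 to 3 without single arrays. They numbered 4 with cyclic loess, and 2 with the mean of probe sets, only the 2 groups or the 0.01 threshold. With the hybridization spikes MVK (-0.13), SCAP (-0.21) and ACACB (-0.08) reversed against control, as they did against TGX221 (MVK -0.02, SCAP -0.09, ACACB -0.02). FASN reversed for PIK75 against TGX221 with the mean of its probe sets (0.02). Members lower with TGX221 than in controls numbered 1, but 0 with poly-A spikes, cyclic loess, every probe set, only the 2 groups, the 0.01 threshold or 1.5-fold, 2 with the hybridization spikes or without dim genes, 3 with array weights, and 0 to 2 without single arrays. Members lower with PIK75 than with TGX221 numbered 26, with 13 at 1.5-fold and 23 to 25 without single arrays. Members higher numbered 3, with 0 under the poly-A spikes, the hybridization spikes or 1.5-fold, 1 with the actin covariate and 3 to 4 without single arrays. They numbered 4 with cyclic loess or centring on array medians, and 2 with the mean of probe sets. Over all genes TGX221 gave 79 lower and 160 higher, against 579 lower and 734 higher with array weights, 4 lower and 26 higher for the mean of probe sets, and 0 in both directions with only the 2 groups. The causes were not tested. The 3 arrays a group limit the precision.

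With the replicate block 27 members were lower and 2 higher with PIK75 than in controls, 0 were lower with TGX221, and 22 were lower and 3 higher with PIK75 than with TGX221. Arrays with the same number did not consistently deviate together. Their correlations were -0.134, 0.122 and -0.046 between PIK75 and control, 0.082 and -0.023 between TGX221 and control, and 0.065 and 0.235 between PIK75 and TGX221. Arrays of different groups and numbers gave -0.292 to 0.256, so the numbers were not taken as pairs.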

Other observations

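Genes that use fatty acids are given beside the 25.2% of all genes that fell with PIK75, the 35.2% that rose and the 41.2% that fell among genes of at least median brightness. Of 17 measured genes of glycerolipid synthesis 8 fell (47.1%) and 3 rose (17.6%) by limma over all genes, a share of falls near that of the brighter genes. CHPT1, which makes phosphatidylcholine, fell by 1.02, AGPAT5, an acyltransferase of lysophosphatidic acid, fell by 0.81, and the phosphatidate phosphatase LPIN2 fell by 0.68. DGAT1, which completes triglyceride (log2 0.33), CEPT1 (log2 0.32) and AGPAT2 (log2 0.22) rose. Of 21 genes of fatty acid oxidation 11 fell (52.4%) and 2 rose (9.52%). DECR1, the reductase for unsaturated chains, averaged 8.77 with PIK75, 10.10 with TGX221 and 10.07 in controls (log2 -1.30 for PIK75 against control). ACADM, the medium-chain dehydrogenase, fell by 0.88 and ECHS1, the hydratase, fell by 0.57, while the peroxisomal oxidase ACOX3 (log2 0.48) and ACADS (log2 0.25) rose. With TGX221 0 genes of either list passed by limma, with 0 of 17 and 3 of 21 at an unadjusted p below 0.05, against 18.3% of all genes.

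The brightest FASN probe set had the same value, 9.26, on all 3 TGX221 arrays. Counting values as deposited that differ by less than 1e-08, equal values on all 3 arrays were found for 166 probe sets on the PIK75 arrays, 436 on the TGX221 arrays and 280 on the control arrays, of 54675.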
